A study of Mus musculus with 18 samples.

Results

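The comparison described here set a mouse fibroblast line carrying introduced TRIM21 against its parental line after electroporation with PBS alone, that is, with no protein delivered. Its members were the 3 samples labelled as TRIM21 with PBS and the 3 labelled as wildtype with PBS, 6 of the 18 samples of the series. All samples were NIH3T3 cells, a line of mouse embryonic fibroblasts. The parental line (called WT) is wild-type, per the labels, and the derived line (called TRIM21) carried mouse TRIM21 fused to the red fluorescent protein mCherry (genotype mCherry-mTRIM21). Both lines were grown in DMEM with calf serum. Cells of every group were electroporated with 2 pulses of 20 ms at 1400 V, and polyA-enriched RNA was sequenced from cells lysed 16 h later. The other 12 samples were the same lines given 7.5 µg of bovine serum albumin (BSA) or of an antibody (IgG), 3 samples for each line and protein. The promoter of the fusion, and whether the TRIM21 line is 1 clone, are not given in the sources used here. A difference between these lines can therefore not be told apart from a difference between any 2 sublines of NIH3T3. No sample without electroporation was analysed here, so the pulses are shared by both sides.

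TRIM21 is a ubiquitin ligase of the cytosol with high affinity for the Fc part of antibodies. When an antibody enters the cytosol on a virus or by electroporation, TRIM21 is recruited to it, forms ubiquitin chains, and the antibody with its target is unfolded and degraded by the proteasome. It is itself an interferon-stimulated gene and can trigger innate immune signalling when clustered. The series used it to degrade chosen proteins, and the PBS samples show what the line differs in before any antibody or carrier protein is added.

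The 6 PBS samples held 20177507 to 28235764 reads assigned to genes. The samples are named below by line and by the number in their title, 10, 11 or 14. Nothing in the labels says that they came from separate cultures, so p-values measure only the spread between samples. That spread was estimated from all 18 samples of the series, not from the 6 PBS samples alone. A pair of libraries stood apart from the rest. The TRIM21 sample numbered 11 had the most extreme score of all 18 samples on the first principal component (-46.1, against -17.0 and -9.12 in the other TRIM21 PBS samples). Its root mean square deviation from its group was also the largest, at 0.326 on the log2 scale. The PBS samples had deviations of 0.203 to 0.326, and the BSA and IgG samples had smaller ones, 0.146 to 0.190. The WT sample numbered 14 had the highest score of the WT samples (28.2, against 9.0 and 13.3) and a deviation of 0.263, and the TRIM21 sample numbered 14 had a deviation of 0.256. The first component also separated the lines, with all TRIM21 samples at negative scores and all WT samples at positive scores. The TRIM21 sample numbered 11 and the WT sample numbered 14 were therefore its opposite ends. Leaving out both takes away the samples furthest apart between the lines on it, so fewer calls without them are partly built in. For the larger lists, counts of calls are given with and without these libraries. Leaving out the TRIM21 sample numbered 14 instead gave more calls for several lists, and some of those counts are given too. The fibroblast label was checked against 15 markers, of which 13 were tested, and Nt5e was at 0 counts in all 6 samples. Their summed level was 18532 to 30258 CPM (counts per 1e6 gene-assigned reads) in TRIM21 and 30560 to 31951 CPM in WT. Markers of epithelial, endothelial, blood, muscle and neural or glial cells summed to at most 21.3 CPM for any of these cell types in any PBS sample, and defining genes of each (Epcam, Kdr, Cd3e, Myod1, Sox10) were at 0.

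Trim21 was examined first, as a check of the labels. Trim21 (chromosome 7, 102557921 to 102565486, mm10) had 1069, 1188 and 989 CPM in the TRIM21 samples numbered 10, 11 and 14. In the WT samples it had 6.72, 8.10 and 9.73 CPM. The groups lay far apart, at 1082 ± 100.0 and 8.18 ± 1.5 CPM (SD, n = 3 each), a 132-fold difference. On the log2 scale the difference was 7.05 (SE 0.17), with an adjusted p of 3.43e-15 from edgeR's fit across all genes. An exact two-sided permutation test over the 20 assignments of the 6 samples gave p = 0.1, the smallest it can give. Reads of the fusion and of the cells' own gene are counted together. Trim21 took 0.0980% to 0.117% of all gene counts in the TRIM21 PBS samples.

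Beyond Trim21 the genes that passed the test in the fit used here were mostly losses. Of 12140 tested genes, 208 (1.71%) passed an adjusted p of 0.05 in edgeR's quasi-likelihood test, with the Benjamini-Hochberg adjustment taken over all of them, and are termed called below. Of these, 25 genes (0.206% of those tested) were higher in TRIM21 and 183 (1.51%) were lower. The losses were also the larger changes: 123 genes were at least 2-fold lower and 41 at least 4-fold lower, against 13 and 4 that were higher by the same folds. The median log2 fold change over all tested genes was 0.0054. Genes called tended to be weakly expressed, with a median WT level of 7.36 CPM against 31.5 CPM for all tested genes. The CPM values of the 3 TRIM21 and the 3 WT samples did not overlap for 207 of the 208 genes, a state that 15.4% of all tested genes reached. The number of calls depended on single libraries. It was 122 without the TRIM21 sample numbered 11, 104 without the WT sample numbered 14, 71 without both, and 1018 (442 higher, 576 lower) without the TRIM21 sample numbered 14. A fit of only the 6 PBS samples called 44, 4 higher and 40 lower. With the title number as a block 847 were called (321 higher, 526 lower). Adding an offset for GC content gave 1988 (1012 higher, 976 lower). The excess of losses was smaller without the TRIM21 sample numbered 14 and with the block, and absent with the offset added. A core of 91 genes, 85 lower and 6 higher, was called in each of the 6 fits that left out 1 PBS sample, and 67 of the 208 were also called without both libraries that stood apart. The lists used below to describe functions were drawn up with earlier results of these data known. Their 1397 tested genes held 70 calls (5.01%), so a list's share is read against that value as well as against 1.71%. Shares up to 7.94% lie near it, and the genes of such lists are described gene by gene, not as a change of the list's function.

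**Figure D1:**
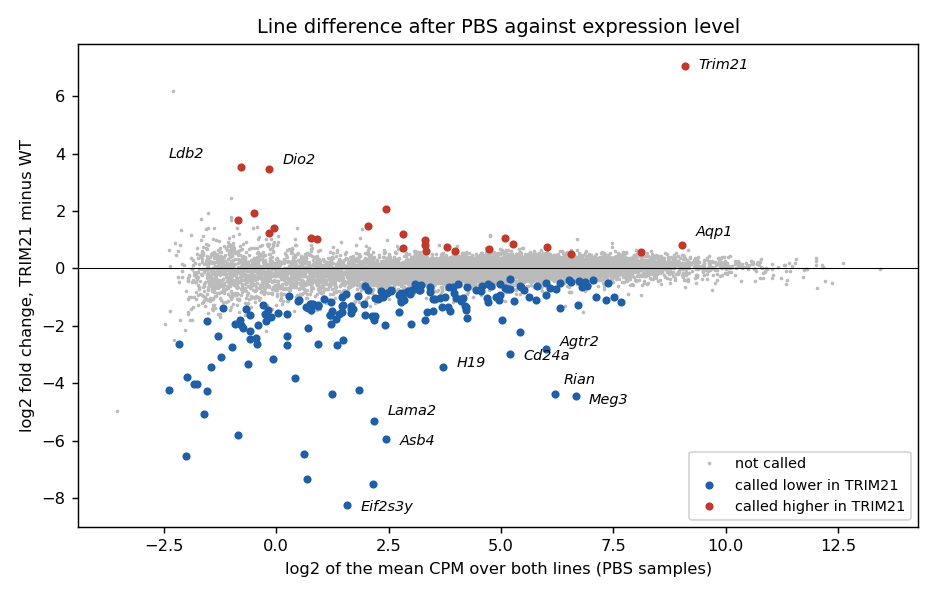
Each point is 1 of the 12140 tested genes, with the log2 of its mean CPM over the 6 PBS samples on the horizontal axis and the log2 fold change, TRIM21 minus WT, on the vertical axis. The 183 genes called lower reach much further from 0 than the 25 called higher, with Trim21 as the exception at 7.05.

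**Figure D2:**
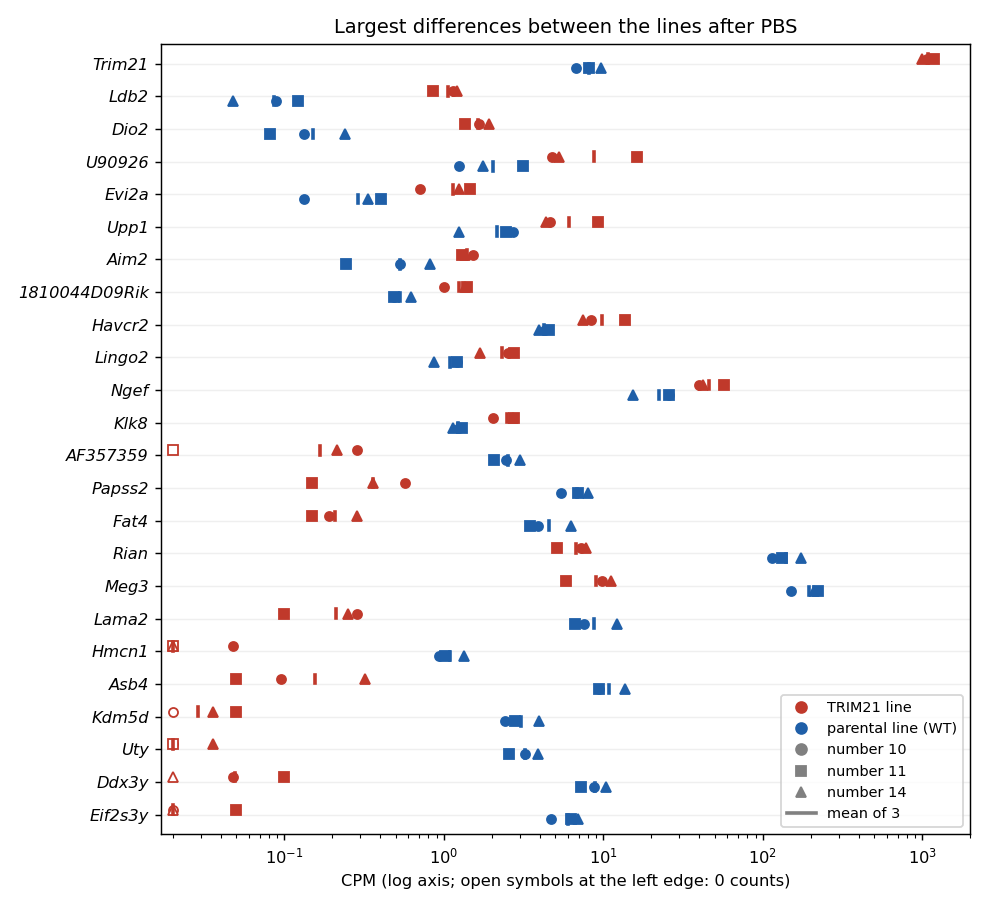
CPM on a log axis in each PBS sample for the 12 largest rises and the 12 largest falls among called genes with at least 1 CPM in the higher group, red for TRIM21 and blue for WT, with the title number as the symbol and the mean of 3 as a bar. Genes were chosen so that the 3 samples of each line lie apart from those of the other, and open symbols mark samples with 0 counts.

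Among called genes with at least 1 CPM in WT, the 4 largest falls on the log2 scale were those of Eif2s3y, Ddx3y, Uty and Kdm5d, the genes of chromosome Y that are broadly active in male cells. They encode a translation initiation factor subunit, an RNA helicase and a pair of histone demethylase family proteins. In WT samples Ddx3y had 197, 180 and 216 counts, and in TRIM21 samples 1, 2 and 0. Eif2s3y had 105, 155 and 145 counts in WT and 0, 1 and 0 in TRIM21. Uty had 72, 63 and 81 counts in WT against 0, 0 and 1, and Kdm5d 54, 69 and 83 against 0, 1 and 1. These counts corresponded to a level 206-fold lower in TRIM21 for Ddx3y (95% counting interval 70.1 to 1002) and 107-fold lower for Kdm5d (29.3 to 892). Over all 45 genes of chromosome Y in the files, the WT PBS samples held 429 to 527 counts and the TRIM21 PBS samples 1 to 4. The same contrast stood in the other samples, with 378 to 538 counts in the 6 WT samples given BSA or IgG and 0 to 5 in the 6 TRIM21 samples. The X-linked copies of these genes (Eif2s3x, Ddx3x, Kdm6a and Kdm5c) and 3 other X-linked partners were all tested, and none was called. Eif2s3x, for instance, had 56.0, 56.2 and 45.4 CPM in TRIM21 and 51.1, 37.6 and 41.9 CPM in WT, a log2 fold change of 0.27 (edgeR adjusted p = 0.23).

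Imprinted genes, which are expressed mainly from the copy of a single parent, held a second group of losses. Of 27 tested genes listed as imprinted or beside an imprinted cluster, 7 were lower and 0 higher (25.9% called, against 1.71% of all tested genes and 5.01% of genes on the lists), and the list's median log2 fold change was -0.45. Meg3 and Rian are maternally expressed noncoding RNAs that lie in line in the Dlk1-Dio3 region of chromosome 12. Meg3 (109541001 to 109571726) had 9.84, 5.85 and 11.2 CPM in TRIM21 and 149, 222 and 209 CPM in WT. Rian (109603940 to 109661716), a host of small nucleolar RNAs, had 7.27, 5.10 and 7.76 CPM in TRIM21 and 115, 131 and 174 CPM in WT. They were 21.4-fold and 20.7-fold lower, with log2 fold changes of -4.42 (SE 0.22, edgeR adjusted p = 3.99e-10) and -4.37 (SE 0.16, adjusted p = 4.26e-12). Mirg, the microRNA host further along the same strand, fell less, from 36.4 ± 7.73 to 16.2 ± 3.78 CPM (SD, n = 3 each; log2 fold change -1.17, edgeR adjusted p = 0.00048). The paternally expressed protein-coding genes of the region did not pass the test. Dlk1, a Notch-related growth regulator, had a log2 fold change of -0.45 (edgeR adjusted p = 0.21) and Rtl1, a retrotransposon-derived gene, one of -0.83 (adjusted p = 0.089).

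The stretches at which RefSeq starts Meg3 and Rian are shown because these neighbouring RNAs fell together. They are 300 bases each, from 250 before to 50 after the start, plus strand, build GRCm38.p6, with CG dinucleotides (the sites of DNA methylation in mammals) in capitals. RefSeq gives Meg3 another start, not shown.
Meg3, chr12:109540746-109541045: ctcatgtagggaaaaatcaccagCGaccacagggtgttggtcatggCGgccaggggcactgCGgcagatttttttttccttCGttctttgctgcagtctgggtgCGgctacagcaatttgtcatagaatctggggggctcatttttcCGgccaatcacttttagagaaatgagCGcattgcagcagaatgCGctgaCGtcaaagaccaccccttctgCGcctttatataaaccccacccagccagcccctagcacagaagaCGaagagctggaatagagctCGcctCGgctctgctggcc
Rian, chr12:109603695-109603994: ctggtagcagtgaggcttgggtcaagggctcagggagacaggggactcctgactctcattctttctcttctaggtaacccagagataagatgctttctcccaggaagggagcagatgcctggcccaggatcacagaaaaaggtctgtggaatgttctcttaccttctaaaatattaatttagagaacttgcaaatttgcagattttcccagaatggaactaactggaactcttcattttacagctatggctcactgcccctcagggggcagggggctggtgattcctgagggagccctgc
The Meg3 window shown held 13 CG dinucleotides and the Rian window 0. The window at the other Meg3 start held 1. Among all 32851 RefSeq windows of this length, 37.9% held at least 13 and 5.43% held none. The CG count is a property of the reference letters, and methylation was not measured here.

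Losses among imprinted genes were found on other chromosomes as well. Asb4 (chromosome 6, 5383386 to 5433022), a maternally expressed substrate receptor of ubiquitin ligases, had 0.0951, 0.05 and 0.322 CPM in TRIM21 and 9.35, 9.36 and 13.7 CPM in WT. This was a 60.8-fold difference (log2 fold change -5.93, SE 0.35, edgeR adjusted p = 4.56e-09). It rests on 12 counts in TRIM21, and without the TRIM21 sample numbered 14 the log2 fold change was -7.11. Pdk4, a kinase that inhibits pyruvate dehydrogenase, was listed with the imprinted cluster because it lies beside Asb4. It had 22.2, 21.1 and 30.2 CPM against 42.1, 43.5 and 74.1 CPM in WT. Other tested genes of that neighbourhood, Pon2, Pon3, Casd1 and Ppp1r9a, were not called. H19 (chromosome 7), the maternally expressed noncoding RNA next to Igf2, had 1.95, 1.6 and 3.04 CPM in TRIM21 and 15.7, 23.4 and 33.3 CPM in WT, a 10.7-fold difference (edgeR adjusted p = 4.18e-05). Igf2, the growth factor gene beside it, had a log2 fold change of -0.90 that did not pass the test (edgeR adjusted p = 0.21). Ndn, a paternally expressed growth suppressor, fell from 29.9 ± 4.22 to 17.2 ± 1.00 CPM (SD, n = 3 each). Leaving out either or both of the libraries that stood apart left 6 of the 27 imprinted genes called. These were Meg3, Rian, H19, Asb4, Mirg and Ndn in each case, whereas Pdk4 was not called. The list's median was -0.20 without both libraries.

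Several genes of the extracellular matrix were also among the losses. In basement membranes, sheets of laminin, type IV collagen and nidogen under and around cells, 3 of 21 tested genes fell and 0 rose (14.3%), and Lama2 alone was called without both libraries that stood apart. Lama2 (chromosome 10, 26980036 to 27619758), the laminin chain of muscle and nerve basement membranes, had 0.285, 0.1 and 0.250 CPM in TRIM21 and 7.52, 6.64 and 12.2 CPM in WT. It was 39.5-fold lower (log2 fold change -5.30, SE 0.36, edgeR adjusted p = 3.55e-08). Smoc2, a matricellular calcium-binding protein, had 1.90, 2.10 and 2.29 CPM against 4.23, 6.08 and 9.87 CPM. Nid2, a nidogen that links laminin to collagen, had 9.32, 6.50 and 10.9 CPM against 15.3, 15.5 and 23.1 CPM, and its call held in 2 of the 6 fits that left out a sample. The other laminin chains tested were not called. Lamc1 and Lamb1, the common partners of the alpha chains, had log2 fold changes of -0.21 and 0.05. Hmcn1, a very large immunoglobulin-domain protein of the matrix that lies on no list, had 21, 25 and 28 counts in WT and 1, 0 and 0 in TRIM21.

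Collagens are the bulk of a fibroblast's secreted protein. Of 31 tested collagens and collagen-modifying enzymes 2 fell and 0 rose (6.45%; 0 of them called without both libraries that stood apart), the minor fibrillar chain Col11a1 (1.6 to 2.14 CPM in TRIM21, 3.89 to 5.32 CPM in WT) and Crtap, part of a prolyl hydroxylase complex (72.1 to 82.2 against 91.2 to 109 CPM). The main chain gene Col1a2 had 3926, 2792 and 5366 CPM in TRIM21 and 4975, 5671 and 5857 CPM in WT. Its groups overlapped, and its log2 fold change was -0.45 (SE 0.21, edgeR adjusted p = 0.24). In all, 27 of the 31 genes had values below 0 with a median of -0.35. That median was -0.16 without the TRIM21 sample numbered 11, whose collagen level was the lowest of the 6. Without the TRIM21 sample numbered 14 it was -0.54, and 14 of the 31 genes were called.

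Further matrix proteins and proteases were among the losses. Of 52 other matrix genes 4 fell and 0 rose (7.69%): the small leucine-rich proteoglycans Aspn and Lum, the calcification inhibitor Mgp, and Igfbp7, a secreted binding protein of insulin-like growth factors. Aspn had 18.4, 4.10 and 22.5 CPM in TRIM21 and 53.7, 47.6 and 110 CPM in WT. Lum was low in all samples, with 0.25 to 0.536 CPM against 0.668 to 3.69 CPM. Without both libraries that stood apart 2 of these genes were called. Among 47 proteases and inhibitors 4 fell and 1 rose (10.6%), 3 were called without both of those libraries, and the falls are described here. Serpine2, an inhibitor of thrombin and plasminogen activators, had 0.903, 0.650 and 0.930 CPM in TRIM21 and 3.34, 5.02 and 5.94 CPM in WT, a 5.67-fold difference (edgeR adjusted p = 3.57e-05). Mmp16, a membrane-bound metalloprotease, was 5.54-fold lower, at 0.150 to 0.238 against 1.10 to 1.20 CPM. Adam23, an integrin-binding member of the ADAM family without protease activity, was 2.01-fold lower, and the collagen-degrading cathepsin Ctsk 2.93-fold lower.

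Sulfate handling touches the same matrix, because heparan and chondroitin chains are sulfated. Papss2 (chromosome 19, 32595790 to 32667187), which makes the activated sulfate donor, had 0.570, 0.150 and 0.358 CPM in TRIM21 and 5.43, 6.97 and 8.00 CPM in WT. It was 18.5-fold lower (log2 fold change -4.21, SE 0.28, edgeR adjusted p = 2.77e-08). Its paralog Papss1 stood at 177 CPM in WT and had a log2 fold change of -0.01. Sulf1, an extracellular enzyme that removes sulfate groups from heparan sulfate, had 1.05 to 1.61 against 2.78 to 2.94 CPM. Sumo3, a ubiquitin-like modifier from the same list, had 1.38, 1.15 and 1.43 CPM against 3.43, 4.46 and 4.03 CPM. Sumo3 is close in sequence to Sumo2, so its count is uncertain. Of the 39 tested genes for SUMO and sulfate these 3 fell and 0 rose (7.69%). Each was called in every fit that left out 1 sample, and Papss2 and Sumo3 without both libraries that stood apart.

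Cell-surface adhesion showed single large losses among many members that were not called. Fat4 (chromosome 3, 38886940 to 39011985), a giant cadherin that acts in planar polarity and growth control, had 0.190, 0.150 and 0.286 CPM in TRIM21 and 3.92, 3.48 and 6.28 CPM in WT. It was 20.5-fold lower (log2 fold change -4.36, SE 0.38, edgeR adjusted p = 1.51e-06) and was the only call among 18 tested cadherins (5.56%). Of 29 integrins 1 fell and 1 rose (6.90%), and 0 were called without both libraries that stood apart. Itgb3, the beta chain of the vitronectin receptor, had 3.47, 4.65 and 5.58 against 6.72, 9.11 and 10.3 CPM, and Itgb7, better known from lymphocytes, had 10.6, 18.2 and 10.7 against 6.77, 7.98 and 4.94 CPM. Guidance genes, which steer axons and migrating cells, counted 4 falls and 0 rises of 53 (7.55%), of which Ntn1 was called without both of those libraries. The secreted cue Ntn1 had 2.28, 1.35 and 2.15 CPM against 5.70, 6.32 and 5.89 CPM in WT (log2 fold change -1.62, edgeR adjusted p = 7.75e-05). Epha7, an ephrin receptor, had 0 to 0.05 CPM in TRIM21 and 0.445 to 0.527 CPM in WT. Epha4 and Igsf9 were 1.70-fold and 2.71-fold lower.

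**Figure D3:**
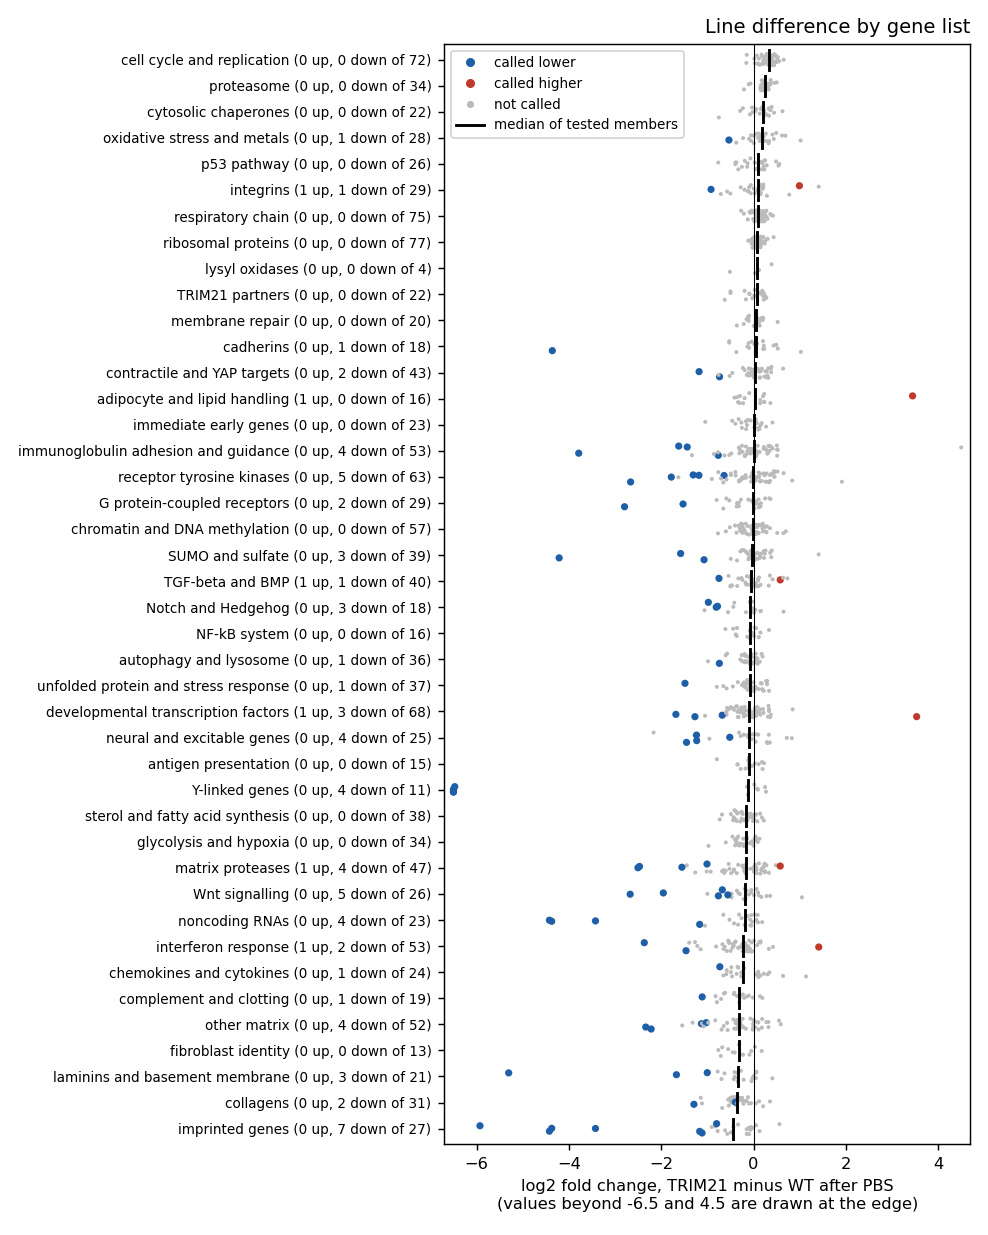
Log2 fold change, TRIM21 minus WT after PBS, of every tested member of 42 gene lists, 1 point per gene, with called members in blue (lower) or red (higher) and the median of each list as a black bar. Called members lie mostly to the left, often as single genes far from a median near 0, and lists such as cell cycle and proteasome sit to the right of 0 with no called member.

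Growth factors and their receptor tyrosine kinases counted 5 falls and 0 rises of 63 tested members (7.94%). Without both libraries that stood apart Egfr and Gas6 were called. Egfr, the receptor for epidermal growth factor, had 2.52, 1.5 and 2.11 CPM in TRIM21 and 6.77, 5.87 and 8.58 CPM in WT, 3.44-fold lower (edgeR adjusted p = 7.42e-05). Gas6, the ligand of the TAM receptors that recognise dying cells, had 0.665, 0.450 and 0.930 CPM against 4.72, 4.82 and 3.83 CPM. Both were called in every fit that left out a sample. Igf1 had 14.4, 6.40 and 11.1 CPM against 27.9, 18.7 and 32.5 CPM. Ptn, a heparin-binding growth factor, was the most abundant of the 5, with 125, 76.9 and 170 CPM against 230, 267 and 349 CPM, and its call held in 3 of 6 such fits. Flt1, a receptor of vascular endothelial growth factor, was 1.56-fold lower.

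Wnt signalling controls growth and fate through Frizzled receptors, and secreted proteins such as Sfrp and Dkk family members modulate it. Of 26 tested genes 5 fell and 0 rose (19.2%). The secreted modulators were Sfrp2 (0.190, 0.300 and 0.429 CPM in TRIM21, 1.25, 1.94 and 2.97 CPM in WT), Sfrp1 (0.107 to 0.333 against 0.623 to 1.13 CPM) and Dkk3 (53.9, 42.2 and 60.5 against 74.7, 88.7 and 87.0 CPM). The receptors were Fzd6, 1.47-fold lower, and Lrp4, 1.69-fold lower. Sfrp2 and Dkk3 were called in every fit that left out a sample, Sfrp1 in 1 of 6, and none of the 26 genes without both libraries that stood apart. Wnt5a, the most expressed ligand tested, had a log2 fold change of 0.01. Among 18 Notch and Hedgehog genes 3 fell (16.7%; 0 were called without both of those libraries): the Hedgehog co-receptors Cdon (37.4, 25.7 and 36.3 against 57.6, 55.2 and 83.2 CPM) and Boc (1.75-fold lower), and the receptor Notch1 (1.72-fold lower). Cdon alone of these was called in every fit that left out 1 sample.

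Some receptors and excitable-cell genes were also among the losses. Agtr2, the type 2 angiotensin II receptor, is on chromosome X and had 18.8, 12 and 17.7 CPM in TRIM21 and 82.7, 71.5 and 183 CPM in WT. It was 6.94-fold lower (log2 fold change -2.79, SE 0.33, edgeR adjusted p = 7.50e-05). The endothelin receptor Ednra had 0.550 to 2.22 against 3.16 to 5.70 CPM, and these were the 2 calls among 29 G protein-coupled receptors (6.90%). Agtr2 was also called without both libraries that stood apart. Rgs4, which shortens the signals of such receptors, had 7.27, 7.75 and 7.79 CPM against 18.7, 19.5 and 26.2 CPM (log2 fold change -1.50, SE 0.15, edgeR adjusted p = 1.33e-05). Of 25 neural and excitable genes 4 fell (16.0%; 2 were called without both of those libraries): the calcium channel subunits Cacna1g (10.6, 6.05 and 13.1 against 28.1, 29.4 and 24.2 CPM) and Cacna1c (52.0 to 53.7 against 72.0 to 81.1 CPM), the microtubule protein Map2 and the growth cone protein Gap43. In the contractile list 2 of 43 fell (4.65%, close to the 5.01% over all lists), the myosin light chain Myl9 (31.0, 36.1 and 36.1 against 59.7, 66.1 and 46.0 CPM) and the actin nucleator Lmod1.

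Developmental transcription factors counted 3 falls and 1 rise of 68 (5.88%), of which Ldb2 was called without both libraries that stood apart. Among the falls, the GATA factor Gata6 had 0.300 to 0.608 CPM in TRIM21 and 1.20 to 1.58 CPM in WT, and Foxf1 had 0.950 to 1.36 against 2.00 to 3.35 CPM. Ldb2, a cofactor of LIM domain transcription factors, was the member that rose. It had 1.14, 0.850 and 1.22 CPM in TRIM21 and 0.0890, 0.122 and 0.0479 CPM in WT, which were 75 against 6 counts in all, or 12-fold higher (95% counting interval 5.26 to 33.7).

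Rises were few and mostly small. Dio2, which converts thyroid hormone to its active form, had 1.66, 1.35 and 1.93 CPM in TRIM21 and 0.134, 0.0810 and 0.240 CPM in WT, 11.1-fold higher by counts (5.84 to 23.8). Together with Trim21, Ldb2 and Dio2, the genes that were higher in every fit that left out a sample were Aqp1, Eno3 and Havcr2. Aqp1, a water channel, was the most abundant gene to rise after Trim21, at 640, 618 and 750 CPM in TRIM21 and 386, 409 and 338 CPM in WT (log2 fold change 0.83, SE 0.11, edgeR adjusted p = 0.00026). Eno3, the muscle form of the glycolytic enzyme enolase, had 46.8, 53.1 and 48.5 CPM against 33.2, 29.7 and 18.5 CPM. Aqp1 and Eno3 were singled out after their values were seen. Havcr2, an inhibitory receptor known from T cells, had 8.37, 13.7 and 7.51 CPM against 4.32, 4.54 and 3.93 CPM. U90926 had 4.75, 16.4 and 5.29 CPM against 1.25, 3.12 and 1.77 CPM, so its highest value was in the TRIM21 sample numbered 11. Without that sample its log2 fold change went from 2.08 to 1.27 and its call was lost (edgeR adjusted p = 0.15). The same sample was highest for Upp1, a uridine phosphorylase (4.66, 9.30 and 4.36 against 2.72, 2.47 and 1.25 CPM), and for Ngef (39.8, 56.8 and 41.9 against 25.8, 25.8 and 15.4 CPM). Without it their log2 fold changes went from 1.49 to 1.04 and from 1.04 to 0.85, and neither was called (edgeR adjusted p = 0.32 and 0.12). Evi2a, Aim2, 1810044D09Rik, Lingo2 and Klk8 rose by 2.03-fold to 3.84-fold from levels of at most 1.30 CPM in any WT PBS sample. In the BSA samples the lines overlapped for 1810044D09Rik (0.654 to 0.939 CPM in TRIM21, 0.599 to 0.941 CPM in WT) and Klk8 (1.12 to 2.14 against 1.31 to 1.54 CPM). They also overlapped there for Lingo2 (1.65 to 2.14 against 0.866 to 1.66 CPM), but not for Evi2a and Aim2.

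The machinery that TRIM21 works with was examined next. Of 22 tested partners, which comprise the E2 enzymes it uses, the unfoldase Vcp with cofactors, and related TRIM proteins, 0 were called in either direction in the edgeR test. The median log2 fold change was 0.07. Ube2d3, an E2 enzyme, had 290, 357 and 258 CPM against 263, 279 and 299 CPM, with overlapping groups. Of 34 proteasome genes 0 were called, although 31 had values above 0 and the median was 0.24. That median was 0.12 without the TRIM21 sample numbered 11 and 0.09 without both libraries that stood apart, and it was -0.10 in the BSA samples and 0.06 in the IgG samples.

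Innate immune genes showed little that was called in the fit used here. Of 53 interferon response genes 2 fell and 1 rose (5.66%), the median was -0.22, and Parp12 and Aim2 were called without both libraries that stood apart. Parp12, an interferon-induced ADP-ribosyltransferase, had 0.475, 1.25 and 1.00 CPM in TRIM21 and 2.23, 2.92 and 2.40 CPM in WT (log2 fold change -1.46, edgeR adjusted p = 0.006). Ifitm1, a membrane protein that restricts virus entry, had 9 counts in all 3 TRIM21 samples together and 47 in WT. Aim2, a sensor of cytosolic DNA, had 1.52, 1.30 and 1.36 CPM against 0.534, 0.243 and 0.815 CPM. Its call was lost in the fits without the TRIM21 sample numbered 10, the WT sample numbered 10 or the WT sample numbered 11. Parp12 was the only interferon gene called in every fit that left out a sample. Without the TRIM21 sample numbered 14, 10 of the 53 interferon genes were called. The list's median was -0.07 without the TRIM21 sample numbered 11 and -0.01 without both libraries that stood apart. Of 15 antigen presentation genes and 16 members of the NF-kB system 0 were called. Among 24 chemokines and cytokines (4.17% called) Cx3cl1, a membrane-bound chemokine, fell from between 44.6 and 48.9 to between 22.9 and 33.7 CPM, and its call held in 1 of the 6 fits that left out a sample. The complement inhibitor Cd55 had 26.0, 10.8 and 22 CPM against 43.2, 38.3 and 46.1 CPM, the only call among 19 complement and clotting genes (5.26%).

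Several housekeeping lists had no called gene in the fit used here. These were cell cycle and replication, p53, glycolysis and hypoxia, respiratory chain, ribosomal proteins, sterol and fatty acid synthesis, cytosolic chaperones, immediate early genes, membrane repair, chromatin, lysyl oxidases and the fibroblast markers. Together with the TRIM21 partners, proteasome, antigen presentation, NF-kB and markers of other cell types, they made 17 of the 43 lists. Some of them had calls without the TRIM21 sample numbered 14, when 1018 of all tested genes were called. These were 10 of 72 cell cycle genes, 7 of 22 cytosolic chaperones and 5 of 13 fibroblast markers, against 0 of 77 ribosomal protein and 0 of 75 respiratory chain genes. At an unadjusted p under 0.05, 2409 of all 12140 tested genes passed, so these lists are better described by their level in each sample. For the 72 cell cycle genes, 70 had values above 0 with a median of 0.34. The median member in the TRIM21 sample numbered 11 stood 0.55 above its mean over the 6 PBS samples on the log2 scale. The TRIM21 samples numbered 10 and 14 stood at 0.04 and -0.12, within or next to the WT samples at -0.07, -0.07 and -0.28. Without the sample numbered 11 the list's median difference was 0.10, and without both libraries that stood apart 0.06. The same sample was the lowest of the 6 for glycolysis and hypoxia (-0.65), collagens (-0.69), fibroblast markers (-0.73) and complement and clotting genes (-0.67), while the other TRIM21 samples lay between -0.12 and 0.23 for these lists. The WT sample numbered 14 was the lowest for ribosomal proteins, at -0.34. For imprinted genes all 3 TRIM21 samples lay below all 3 WT samples, at -0.43 to -0.11 against 0.13 to 0.27. The same held for Wnt genes and 6 further lists (laminins, other matrix, matrix proteases, sterol and fatty acid synthesis, noncoding RNAs and neural genes). Some gaps were thin, with a highest TRIM21 and lowest WT sample at 0.12 and 0.14 for laminins and 0.09 and 0.11 for other matrix. The noncoding list shares Meg3, Rian, Mirg and H19 with the imprinted list. In the sterol and fatty acid list, 22 of 23 tested sterol genes had values below 0, with a median of -0.29. For 11 of these 23 the lines did not overlap, all lower in TRIM21. The sterol median was -0.18 without both libraries that stood apart, and -0.16 in the BSA and in the IgG samples. The 15 fatty acid genes had a median of -0.02. All TRIM21 samples lay above all WT samples for the proteasome and the cytosolic chaperones, narrowly for both (0.01 against -0.01 and -0.01 against -0.04 at the closest). These lists are out of 43, and among single tested genes 15.4% did not overlap between the lines. How far these libraries enter the list differences beyond the values given here was not tested.

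**Figure D4:**
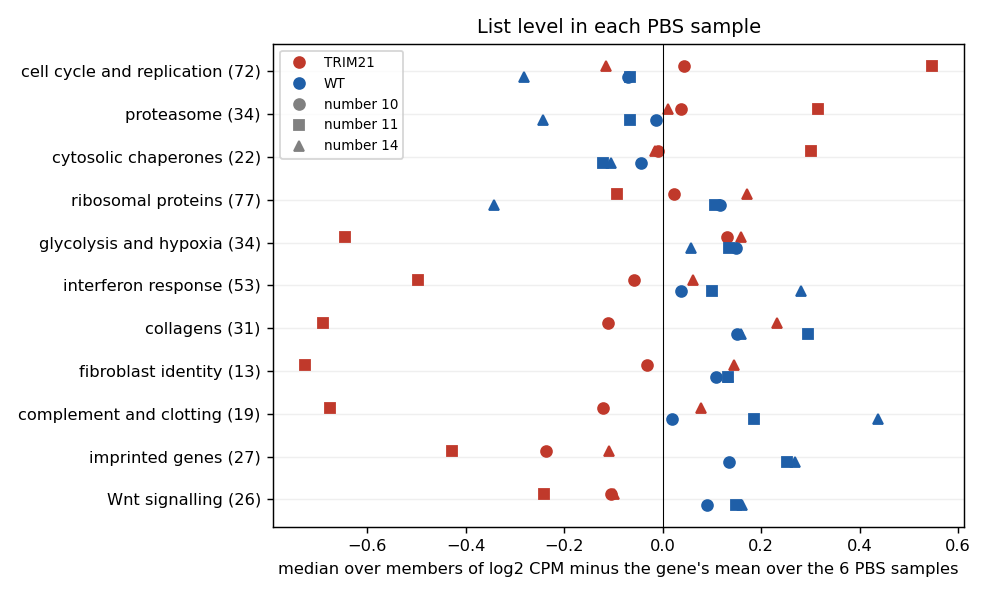
For 11 gene lists, the median over tested members of each gene's log2 CPM minus its own mean over the 6 PBS samples, red for TRIM21 and blue for WT, with the title number as the symbol. The TRIM21 sample numbered 11 lies far from the other TRIM21 samples for the cell cycle, proteasome, glycolysis, collagen and fibroblast lists. The lines lie apart in all samples for the proteasome, chaperone, imprinted and Wnt lists, narrowly for the proteasome and chaperones.

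The lines were also sequenced after BSA and after IgG, in other samples than the PBS samples. They share with these the lines, the title numbers, the gene filter, the scaling and the estimate of the spread. In the edgeR test 103 genes (0.848% of those tested) were called between the lines after BSA, 10 higher and 93 lower, and 94 (0.774%) after IgG, 7 higher and 87 lower. Of the 208 genes called after PBS, 207 had the same sign after BSA and 207 after IgG. The exceptions, named because there were 2, were Aven and Il1rl2. Called in the same direction were 86 after BSA, which is 41.3% of the PBS calls and 83.5% of the BSA calls. After IgG these were 88, which is 42.3% of the PBS calls and 93.6% of the IgG calls. In all 3 comparisons 74 genes were called, 68 lower and 6 higher. Sizes were smaller in the samples that did not choose the genes, with a median absolute log2 fold change of 0.87 after BSA and 0.91 after IgG against 1.24 after PBS. Some falls were large in all 3 comparisons. Meg3 had log2 fold changes of -4.42, -3.67 and -3.94 after PBS, BSA and IgG, and Rian -4.37, -3.73 and -3.92. Lama2 had -5.30, -4.80 and -4.59, and Papss2 -4.21, -3.96 and -4.32. The falls of Meg3, Rian and Lama2 were largest after PBS. Falls with almost no counts in TRIM21 varied more, with -5.78, -3.23 and -3.67 for Hmcn1 and -6.47, -7.45 and -9.27 for Kdm5d, whose fitted sizes rest on 0 to 1 counts in each TRIM21 PBS library. Some rises were smaller there: U90926 had 2.08, 0.31 and 0.43, Havcr2 1.20, 0.44 and 0.76, and Eno3 0.86, 0.14 and 0.63. Havcr2 and Eno3 were called neither after BSA nor after IgG. Other rises held their size better, with 0.83, 0.65 and 0.76 for Aqp1, 3.53, 4.26 and 3.44 for Ldb2, and 3.45, 4.19 and 3.97 for Dio2.

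**Figure D5:**
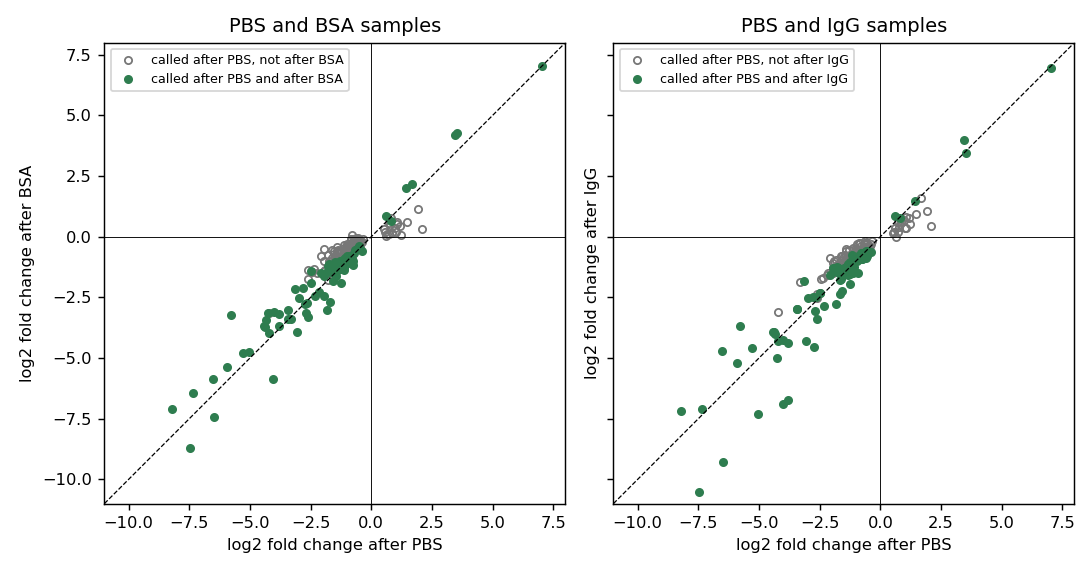
Log2 fold changes, TRIM21 minus WT, of the 208 genes called after PBS, with the PBS value on the horizontal axis and the value after BSA (left) or IgG (right) on the vertical axis. The dashed line marks equal values and filled points were called in both. Nearly all points lie in the quadrants of equal sign, and the open points, not called in the other samples, gather near 0.

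Whether the line difference after PBS differed from its mean after BSA and IgG was tested gene by gene. No gene passed (0 of 12140, smallest adjusted p 0.83 in the edgeR quasi-likelihood test, 509 at an unadjusted p under 0.05, and 0 by DESeq2 and by limma-voom). Of the 208 genes called after PBS, 31 had an unadjusted p under 0.05 in that test. Rian and Meg3 were among them, with unadjusted p of 0.0071 and 0.019 and an adjusted p of 0.83 for both in the edgeR test. The 5 genes with the smallest p were Snord32a, A630001G21Rik, Sult6b1, Itgb1bp2 and Tex26, all at under 2 CPM in every PBS sample, and none was called between the lines after PBS.

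By position, called genes were spread over all chromosomes with tested genes. Only chromosome 1 and chromosome Y had more than 2 times the share of all genes. Chromosome 1 had 27 calls among 685 tested genes (3.94%), 25 lower and 2 higher, and they ran from 12692277 to 173466040 rather than in a single block. Among them were Rgs4, Serpine2 and Hmcn1, the 3 with the smallest p there, and 11 of the 27 were called in every fit that left out a sample. The median log2 fold change of chromosome 1 was -0.02. The autosomes and chromosome X all had medians between -0.07 and 0.06, so no chromosome other than Y was low as a whole. AF357359, a symbol that matched no annotated position, was among the 12 largest falls, with 0.285, 0 and 0.215 CPM in TRIM21 and 2.45, 2.07 and 3.02 CPM in WT.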

How the data were processed

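RNA was measured in 18 samples, of which the 6 PBS samples carry the comparison. The deposited values are raw counts of reads per gene symbol, made by the authors with 1 table per sample. The submitters' processing notes name bcl2fastq 2.19.1.403, FastQC 0.11.5, STAR 2.5.1b, HTSeq 0.6.0 and DESeq2 1.6.3, and build mm10, and the strand setting of the counting is not given in the sources used here. The lines of each table that name no gene were left out, with reads outside genes at 14.8% to 18.8% of the counted reads in the PBS samples.

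Of 24062 symbols, 12140 passed edgeR's filterByExpr (minimum count 10, minimum total 15). Counts were scaled by TMM and fitted with edgeR 4.0.16 (R 4.3.3, quasi-likelihood, 1 mean for each of the 6 groups, all 18 samples). Adjusted p-values are Benjamini-Hochberg values over all tested genes, and the threshold was 0.05. CPM uses the TMM-scaled library sizes, except sums of markers, which use the gene counts as they stand. Positions are from GENCODE M21 on GRCm38, matched by symbol (22758 directly, 934 by an older symbol, 370 not matched). Counting intervals are exact at 95% and cover counting error only, and reads carry no molecular identifiers. A count of 0 in a PBS library allows up to 0.106 to 0.149 CPM. The procedure was tested on simulated data.

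The comparison, its 43 gene lists and the rules were chosen with earlier results of these data known. Lists are described by counts and medians, without a test. Genes named were Trim21, the 12 largest rises and 12 largest falls among called genes without overlap and with at least 1 CPM in the higher group, and up to 6 called members of each list by p. To these were added up to 2 of the most abundant members of a list with no call, the Y-linked genes with their X-linked copies, the 5 smallest interaction p-values and up to 3 genes of a chromosome with over 2 times the share of calls. Further members of a list are named beside it for their values. The values of 2 genes that the rule names are not reported here. The alternatives were DESeq2 size factors, other count filters, the title number as a block, DESeq2 1.42.0, limma-voom (limma 3.58.1), only the PBS samples, a GC offset, and leaving out each sample.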

Additional observations from a re-analysis of the deposited data

How the results depend on the processing

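The count of 208 genes called after PBS (25 higher, 183 lower) was 205 with DESeq2 size factors, 268 with no filter and 184 with limma-voom. It moved to 132 with at least 10 counts in every sample, to 451 with the DESeq2 Wald test (143 higher, 308 lower), to 44 with only the 6 PBS samples (4 higher, 40 lower) and to 343 with the GC offset (74 higher, 269 lower). Leaving out 1 PBS sample at a time gave 104 to 1018, and leaving out both libraries that stood apart, chosen after seeing the data, gave 71 (11 higher, 60 lower). After BSA the count of 103 was 53 with at least 10 counts in every sample, 164 with the DESeq2 Wald test and 66 to 88 leaving out 1 sample. After IgG the count of 94 was 57, 166 and 69 to 85 in the same fits. The interaction gave 0 calls in every fit run. The causes of these shifts were not tested.

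The title numbers were not taken to pair the PBS samples: same-number deviations correlated at 0.031, 0.17 and -0.029, and 1 of 6 samples correlated best with its own number. Over all groups the mean was 0.218, with 32 of 45 same-number pairs over 0.1. A replicate block on the title number called 847 genes after PBS (321 higher, 526 lower), 187 after BSA and 173 after IgG. With the block and the GC offset together 1988 were called after PBS (1012 higher, 976 lower), so the excess of losses among all calls was not seen there. With the block in the 6 PBS samples alone 189 were called, against 44 without it. The adjusted p-values above are from the fit without the block. Whether the title numbers mark shared cultures is not given in the labels.

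Trim21 stayed between 6.92 and 7.19 on the log2 scale in every fit. Of 80 named genes called after PBS, none changed sign in any of the fits, 26 of the 79 tested were called with only the PBS samples, and 34 of 80 without both libraries that stood apart. Depth limits genes under 1 CPM, and 20 of the 208 called genes were under it in the higher group.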

Other observations

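Of the 208 genes called between the lines after PBS, 138 lay on none of the 43 gene lists, and 51 of these were called in every fit that left out a sample. The most abundant of those at least 2-fold lower are described here, chosen after their values were seen and therefore with no weight as a group. Slc1a3, a glutamate transporter, had 52.6, 29.4 and 51.9 CPM in the TRIM21 samples numbered 10, 11 and 14 and 113, 80.7 and 154 CPM in WT. Cd24a, a heavily glycosylated surface protein anchored by a lipid, had 7.94, 7.15 and 9.73 CPM against 46.4, 51.6 and 98.6 CPM, a 7.88-fold difference (log2 fold change -2.98, SE 0.32, edgeR quasi-likelihood adjusted p = 2.16e-05), and after BSA and IgG its log2 fold changes were -2.52 and -2.51. Pappa2, a protease that releases insulin-like growth factors from their binding proteins, had 19.9, 9.5 and 14.6 CPM against 45.0, 43.1 and 64.5 CPM.

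Smaller falls were seen for Rnase4, a secreted ribonuclease (5.65 to 14.2 against 22.7 to 32.3 CPM), for Sparcl1, a relative of the matrix protein SPARC (6.75 to 8.60 against 16.6 to 25.2 CPM), and for Mrvi1 (6.04 to 8.70 against 15.9 to 21.8 CPM). Peg13, an imprinted noncoding RNA of chromosome 15 that was not on the imprinted list, had 11.6, 9.15 and 10.9 CPM in TRIM21 and 18.1, 21.8 and 24.3 CPM in WT. For each of these genes the groups did not overlap after PBS, as for 15.4% of all tested genes.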
